A study of Homo sapiens with 18 samples.

Results

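LCN2, LPO, S100P, GPR1, BCL11B, DMGDH, C1orf158 and KLHDC7B had less RNA in LNCaP cells that carried the 3A form of HOXB13 than in cells that carried empty vector or wild-type HOXB13. These 8 genes of the 58735 in the count table were chosen by their read counts, as lower in 3A than in EV or WT libraries in at least 1 treatment in earlier results of the same data. All 8 passed the filter on low counts, among 17162 genes that did. Their levels across the 3 forms of HOXB13 are therefore a description of why they were chosen and carry no test, while their mean response to androgen over the 3 forms lies outside the comparisons used to choose them and was tested.

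LNCaP is an established, androgen-responsive human prostate cancer line. In all 18 libraries HOXB13 was targeted by a short hairpin RNA and an inducible construct was present. The construct was empty (EV), encoded wild-type protein (WT), or encoded HOXB13 in which threonines 8 and 41 and serine 31 are alanines (3A). The cells spent 48 h without androgen, in 2% charcoal-stripped serum, and were then given ethanol (vehicle, 0.1%) or 10 nM R1881, a synthetic androgen, for 24 h. This gave 6 groups of 3 libraries: EV, WT and 3A in vehicle and EV, WT and 3A with R1881. Every group shares the hairpin, so no library stands for cells with undisturbed HOXB13, and whether each construct was in 1 clone or in a pool of cells is not given in the sources used here.

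HOXB13 is a homeobox transcription factor of the prostate lineage that binds DNA near many androgen receptor sites. The 8 genes belong to no single pathway. LCN2 encodes lipocalin 2, a secreted protein that binds bacterial siderophores and so withholds iron, and LPO encodes lactoperoxidase, a haem peroxidase of secretions; both act in innate defence at epithelial surfaces. S100P is a calcium-binding protein found in several carcinomas. GPR1 (CMKLR2 in RefSeq) is a receptor for the adipokine chemerin, and BCL11B is a zinc finger repressor best known from T cell and neuron development. DMGDH is the mitochondrial dimethylglycine dehydrogenase of choline breakdown. C1orf158 (CFAP107 in RefSeq) encodes a protein of ciliary microtubules, and KLHDC7B encodes a kelch repeat protein.

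The genes lie on 8 different chromosomes (hg38). LCN2 (ENSG00000148346) is at chr9:128149071-128153455 on the plus strand, LPO (ENSG00000167419) at chr17:58218548-58268518 on the plus strand, and S100P (ENSG00000163993) at chr4:6693069-6697170 on the plus strand. GPR1 (ENSG00000183671) is at chr2:206175316-206218047 on the minus strand, and BCL11B (ENSG00000127152) at chr14:99169287-99271524 on the minus strand. DMGDH (ENSG00000132837) is at chr5:78997606-79236038 on the minus strand, C1orf158 (ENSG00000157330) at chr1:12746215-12763699 on the plus strand, and KLHDC7B (ENSG00000130487) at chr22:50545891-50551023 on the plus strand. In LPO, 1.71% of exon bases overlap MKS1 on the other strand, and in DMGDH 4.55% overlap BHMT on the other strand. The strand setting of the counting is not given in the sources used here, so reads from those stretches cannot be told apart. BHMT had 84 counts over all libraries. MKS1 had 11531, and its log2 fold changes in 3A lay between -0.16 and -0.02, so LPO and its overlapping neighbour did not move alike. The other 6 genes shared no exon base with another gene.

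RefSeq gave a promoter for all 8 genes (GRCh38.p14), and the 250 bases before each start were searched on both strands for 5 motifs. They were the HOXB13 motifs CAATAAA and TCGTAAA, the androgen receptor hexamer AGAACA, an NF-kB motif (GGG and TTTCC parted by any 2 bases) and the ATF4 motif TGATGNAA. The ATF4 motif was added after the expression patterns described below had been seen. The stretches that held a motif are shown 5′ to 3′ on the strand of the gene, with the motif in capitals. For KLHDC7B, C1orf158 and BCL11B the stretch is the window outside annotated exons, and for S100P and LPO, whose matches lie within an exon of another annotated transcript of the gene, it is 30 bases around the match.
KLHDC7B, chr22:50545649-50545890, plus strand: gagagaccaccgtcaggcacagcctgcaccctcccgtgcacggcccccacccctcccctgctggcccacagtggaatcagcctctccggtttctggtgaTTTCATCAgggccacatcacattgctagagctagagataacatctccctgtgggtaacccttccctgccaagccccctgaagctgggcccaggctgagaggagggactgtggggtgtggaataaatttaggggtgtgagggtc
S100P, chr4:6693744-6693773, plus strand: acaacgatgcaTTTCATCAgaactgagcac
LPO, chr17:58238511-58238540, plus strand: agtcagtgctaTTGCATCAaccaatccctg
C1orf158, chr1:12745950-12746199, plus strand: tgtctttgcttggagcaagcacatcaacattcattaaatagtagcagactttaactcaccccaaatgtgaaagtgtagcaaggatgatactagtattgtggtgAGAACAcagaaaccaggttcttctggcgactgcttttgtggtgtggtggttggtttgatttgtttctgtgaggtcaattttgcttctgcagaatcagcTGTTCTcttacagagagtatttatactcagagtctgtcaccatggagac
BCL11B, chr14:99272198-99272447, minus strand: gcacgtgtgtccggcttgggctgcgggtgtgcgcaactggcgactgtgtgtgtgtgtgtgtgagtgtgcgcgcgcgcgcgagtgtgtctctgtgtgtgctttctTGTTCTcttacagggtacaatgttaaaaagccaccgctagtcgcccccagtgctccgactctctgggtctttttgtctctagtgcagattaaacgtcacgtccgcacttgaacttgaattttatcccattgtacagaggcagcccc

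The ATF4 motif was present in 3 of the 8 promoters, all on the reverse strand: 151 to 144 bases before the start in KLHDC7B, 123 to 116 bases before it in S100P and 62 to 55 bases before it in LPO. Of 35116 RefSeq promoters of the same length, 1104 (3.14%) held it. The androgen receptor hexamer was present in 2 of the 8, at 147 to 142 bases (forward strand) and 49 to 44 bases (reverse strand) before the start of C1orf158 and at 146 to 141 bases (reverse strand) before that of BCL11B, against 12.4% of all promoters. Neither HOXB13 motif, in the order given above, nor the NF-kB motif was found in any of the 8 windows, against 3.67%, 0.444% and 1.73% of all promoters. These matches describe letters in a short window and do not show that a factor binds there.

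Total counts ran from 22812641 to 30611980 per library. Counts of replicates scattered beyond sampling noise (chi-square over degrees of freedom 9.26 to 54.0 for pairs within groups). Whether replicates came from separate cultures is not in the labels, so every p-value reflects the spread among the libraries at hand, which may be technical. The 8 LNCaP markers summed to 3324 to 12350 CPM (read counts scaled to library size), with none at 0, and 12 markers of other cell types summed to 14.1 to 27.6 CPM, with CD3E, ELANE and TP63 at 0 in every library. By group, those 12 markers summed to 20.7 to 24.3 CPM in EV, 21.0 to 25.2 in WT and 21.7 to 27.6 in 3A vehicle libraries, and to 14.1 to 19.5, 15.6 to 19.5 and 14.9 to 21.9 CPM in the same order with R1881. Of the 12, COL1A1 had the most counts in every group. It had 1578 in EV, 1462 in WT and 1738 in 3A in vehicle, and 995, 1057 and 1236 with R1881. ACTA2 came next in vehicle, with 151, 147 and 160 counts. KRT14 had 25 counts in EV, 157 in WT and 58 in 3A with R1881, and 3, 14 and 4 in vehicle. Which cells these reads came from was not tested. HOXB13 RNA itself, which counts hairpin target and rescue together, was 668, 870 and 739 CPM in the 3A vehicle libraries, 497 to 564 in EV and 490 to 589 in WT. With R1881 it was 578, 506 and 436 CPM in 3A, 405 to 424 in EV and 317 to 366 in WT. The WT libraries thus overlapped EV in vehicle and lay below EV with R1881, so HOXB13 RNA does not bear out a rescue by wild-type HOXB13, and EV, WT and 3A stand below for the libraries so labelled. The part of this difference in HOXB13 RNA in the results below was not tested.

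The 8 genes are weakly expressed. Per gene length, S100P had the highest mean level over all libraries, at 6.12 FPKM (fragments scaled by gene length and library size), followed by LCN2 at 1.28. DMGDH stood at 0.890, BCL11B at 0.576, C1orf158 at 0.523 and GPR1 at 0.500 FPKM, with LPO at 0.318 and KLHDC7B at 0.267 lowest. In mean CPM, which is not scaled by length, they ran from 1.39 for KLHDC7B to 7.90 for S100P, and 22.6% to 40.6% of the tested genes lay below them. The lowest values in 3A therefore rest on few reads, and the counts are given where they fall to 10 or fewer.

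For all 8 genes, every 3A library lay below every EV and every WT library, in vehicle and with R1881. Among all tested genes, 252 (1.47%) did so. Taken 1 comparison at a time, the share of all tested genes whose 3A libraries all lay below was 12.5% against EV and 11.4% against WT in vehicle, and 15% against EV and 9.82% against WT with R1881. Since the genes were chosen for being low in 3A, nothing is read from these shares. The median log2 fold change of the 8 genes in vehicle was -2.16 against EV and -2.21 against WT, and with R1881 -2.52 and -2.42, where the median of all tested genes was between -0.01 and 0.00. As a share of the level in EV, the group means in 3A stood at 11.7% to 36.1% in vehicle and at 9.74% to 28.2% with R1881. Against WT the shares were 13.5% to 40.7% and 8.16% to 37.8%. In bulk RNA, fewer expressing cells and less RNA per cell cannot be told apart.

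Among the secreted defence proteins, LCN2 measured 2.82, 2.52 and 3.38 CPM in the EV vehicle libraries and 3.24, 3.64 and 4.48 in WT, against 0.723, 0.711 and 0.198 in 3A. With R1881 the values were 2.30, 2.47 and 2.19 in EV, 2.11, 2.67 and 1.90 in WT and 0.443, 0.868 and 0.650 in 3A. All 6 libraries of 3A lay under 1 CPM and all others above, and the lowest library, 3A vehicle replicate 3, held 5 counts, while the lowest 3A library with R1881 held 10. The log2 fold change of 3A against EV was -2.38 ± 0.33 (standard error) in vehicle and -1.80 ± 0.34 with R1881, and against WT it was -2.77 ± 0.33 and -1.75 ± 0.33.

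LPO measured 4.42, 4.36 and 3.38 CPM in EV, 2.95, 2.89 and 3.18 in WT and 0.975, 1.24 and 1.46 in 3A in vehicle. With R1881 it measured 2.30, 2.07 and 2.00 in EV, 1.37, 1.45 and 2.12 in WT and 0.354, 0.347 and 0.325 in 3A. The 3 forms did not overlap in vehicle, with EV highest and 3A lowest, and with R1881 EV and WT overlapped. The 3A libraries with R1881 held 8 to 10 counts each and lay close together. Against EV the log2 fold change of 3A was -1.73 ± 0.24 in vehicle and -2.62 ± 0.29 with R1881, and against WT -1.30 ± 0.24 and -2.25 ± 0.29.

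S100P, the most abundant of the 8, measured 6.53, 8.42 and 8.34 CPM in EV, 8.36, 7.66 and 10.2 in WT and 3.40, 2.28 and 1.78 in 3A in vehicle. With R1881 it measured 12.6, 16.2 and 15.6 in EV, 11.6, 9.79 and 8.25 in WT and 5.14, 3.40 and 2.67 in 3A. It is the 1 gene of the 8 whose highest group was an R1881 group: EV with R1881 lay above all other groups without overlap. The fold changes of 3A against EV were -1.63 ± 0.24 in vehicle and -1.99 ± 0.23 with R1881, and against WT -1.80 ± 0.24 and -1.41 ± 0.23, on the log2 scale.

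The chemerin receptor GPR1 measured 3.79, 2.21 and 2.50 CPM in EV, 1.95, 4.31 and 2.79 in WT and 0.503, 0.187 and 0.554 in 3A in vehicle, the middle one from 5 counts. With R1881 the levels were 1.13, 0.943 and 0.885 in EV and 1.12, 1.02 and 1.40 in WT. In 3A with R1881 they were 0.443, 0.0347 and 0 CPM, from 10, 1 and 0 counts. The library with 0 counts allows up to 0.108 CPM, the level of 3 counts, and such limits cover counting error only. On the log2 scale 3A differed from EV by -2.75 ± 0.52 in vehicle and -2.74 ± 0.66 with R1881, and from WT by -2.84 ± 0.52 and -2.99 ± 0.65. Without 3A R1881 replicate 1, the library with 10 counts, the differences with R1881 were -5.46 and -5.71, and without replicate 3, the library at 0, they were -2.14 and -2.39.

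The repressor BCL11B measured 7.84, 7.67 and 6.40 CPM in EV, 8.90, 8.91 and 4.60 in WT and 3.36, 2.25 and 2.30 in 3A in vehicle. With R1881 it measured 4.15, 3.19 and 5.59 in EV, 5.63, 4.64 and 4.40 in WT and 1.06, 0.903 and 0.469 in 3A. The 3A vehicle libraries overlapped the EV libraries with R1881, and the 3A libraries with R1881 lay below all others. The difference from EV was -1.46 ± 0.27 in vehicle and -2.42 ± 0.32 with R1881 on the log2 scale, and from WT -1.49 ± 0.27 and -2.60 ± 0.32.

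The choline pathway enzyme DMGDH measured 8.85, 5.15 and 7.39 CPM in EV, 5.36, 9.41 and 8.60 in WT and 2.04, 1.83 and 1.66 in 3A in vehicle. With R1881 it measured 5.82, 4.36 and 5.64 in EV, 4.51, 4.68 and 6.26 in WT and 1.77, 0.660 and 1.08 in 3A. Its levels fell into a higher set, EV and WT of both treatments, which overlapped one another, and a lower set, 3A of both treatments, which also overlapped. Its 4 log2 fold changes in 3A were close together, at -1.94 ± 0.28 and -2.19 ± 0.30 against EV and -2.07 ± 0.28 and -2.16 ± 0.30 against WT, in vehicle and with R1881.

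The ciliary gene C1orf158 measured 3.83, 6.20 and 5.38 CPM in EV, 4.32, 3.93 and 3.65 in WT and 0.849, 0.449 and 1.03 in 3A in vehicle. With R1881 it measured 1.71, 0.674 and 1.77 in EV, 1.32, 2.20 and 1.44 in WT and 0.0886, 0.208 and 0.108 in 3A. The 3A libraries with R1881 held 2, 6 and 3 counts, and this group had the lowest share of the WT level among the 8 genes, 8.16%. The log2 fold change of 3A was -2.72 ± 0.35 against EV and -2.35 ± 0.35 against WT in vehicle, and -3.28 ± 0.48 and -3.54 ± 0.47 with R1881.

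The kelch gene KLHDC7B measured 2.86, 2.52 and 3.24 CPM in EV, 1.58, 2.47 and 3.42 in WT and 0.660, 0.112 and 0.238 in 3A in vehicle, the last group from 21, 3 and 6 counts. With R1881 it measured 1.85, 1.30 and 0.606 in EV, 1.16, 0.983 and 1.48 in WT and 0.310, 0 and 0.180 in 3A, the last from 7, 0 and 5 counts. The library with 0 counts allows up to 0.104 CPM. The 3A vehicle replicate 1 library, at 0.660 CPM, lay above the lowest EV library with R1881, and within each treatment 3A did not overlap EV or WT. The log2 fold change of 3A was -3.03 ± 0.54 and -2.98 ± 0.65 against EV and -2.82 ± 0.55 and -2.92 ± 0.65 against WT, in vehicle and with R1881. Without 3A vehicle replicate 1 the vehicle values were -4.01 and -3.80. With R1881 they were -3.76 and -3.69 without 3A replicate 1 and -2.36 and -2.30 without replicate 2.

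**Figure D1:**
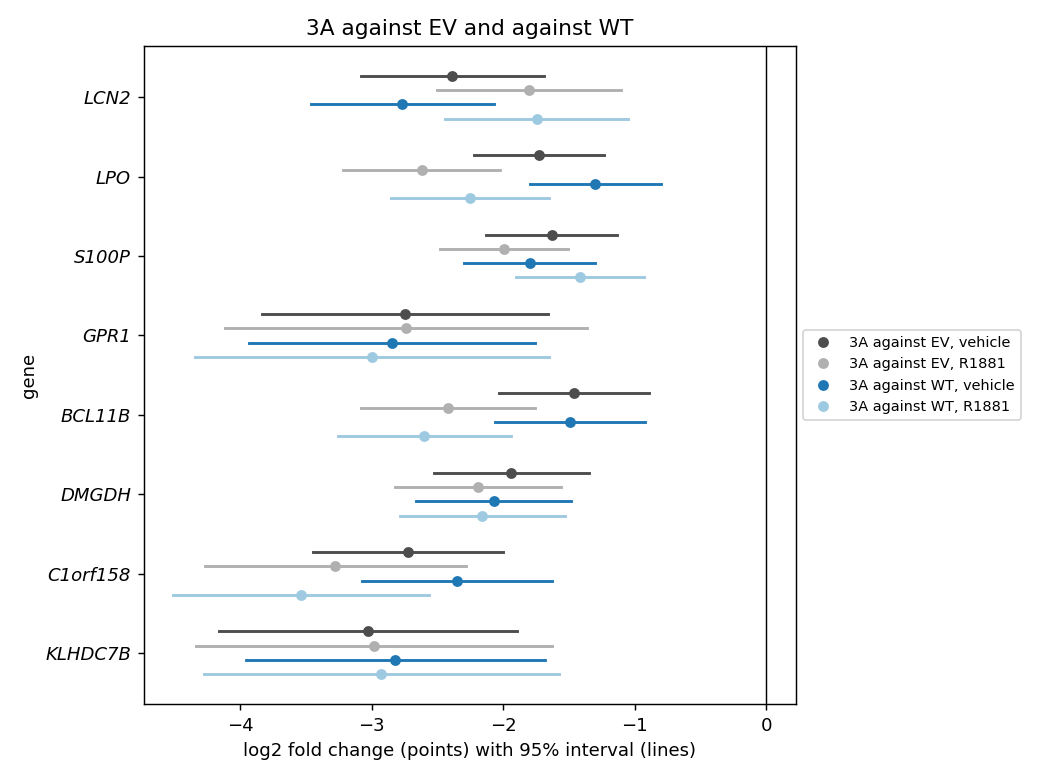
Log2 fold change of 3A against EV and against WT (x axis; points, with 95% intervals as lines) for each of the 8 genes (y axis), in vehicle and with R1881. All 32 points lie below 0, from -3.54 (C1orf158 against WT with R1881) to -1.30 (LPO against WT in vehicle), and the widest intervals belong to GPR1 and KLHDC7B, which had the fewest counts.

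EV and WT libraries overlapped for 7 of the 8 genes in each treatment. In vehicle the log2 fold change of WT against EV ran from -0.43 ± 0.22 for LPO to 0.38 ± 0.29 for LCN2, with a median of 0.06. With R1881 it ran from -0.58 ± 0.22 for S100P to 0.26 ± 0.35 for C1orf158, with a median of -0.05. LPO in vehicle was the 1 gene of the 8 with all WT libraries below all EV libraries (4.48% of all tested genes), and S100P with R1881 was the 1 with all WT below all EV in that treatment (15.8% of all tested genes). These contrasts follow from those used to choose the genes and are given without a test.

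The mean response to R1881 over the 3 forms was tested, since it weighs EV, WT and 3A alike within each treatment and so is not made of the comparisons used for the choice. Averaged over EV, WT and 3A, 6 of the 8 genes fell and 1 rose by edgeR's quasi-likelihood test at an adjusted p under 0.05, while 41.7% of all tested genes were called in that comparison (21.1% lower and 20.6% higher). C1orf158 fell by 1.86 (edgeR adjusted p = 6.39e-07), LPO fell by 1.21 (edgeR adjusted p = 6.91e-07) and BCL11B fell by 1.03 (edgeR adjusted p = 2.71e-05) on the log2 scale. GPR1 fell by 1.46 (edgeR adjusted p = 0.000977), and without 3A R1881 replicate 1 it fell by 2.35 (edgeR adjusted p = 7.05e-06). DMGDH fell by 0.57 (edgeR adjusted p = 0.00717). KLHDC7B fell by 1.13 (edgeR adjusted p = 0.00901), a call lost without 3A vehicle replicate 1 (-0.80, edgeR adjusted p = 0.0853). S100P alone rose, by 0.56 (edgeR adjusted p = 0.00176). LCN2 had a log2 fold change of -0.28 with an interval from -0.67 to 0.11 and did not pass (edgeR adjusted p = 0.255).

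Within 1 form, the response shares its libraries with the comparisons used for the choice, so its values are a description and carry no p. At the threshold applied to all genes, 4 of the 8 genes were lower and 1 was higher in EV (12% and 13.2% of all tested genes), 3 were lower in WT (9.14%) and 3 were lower in 3A (12.1%). Nothing is read from these counts.

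The peroxidase gene LPO had log2 fold changes with R1881 of -0.93 ± 0.23 in EV, -0.87 ± 0.24 in WT and -1.82 ± 0.29 in 3A. The ciliary gene C1orf158 had -1.89 ± 0.33, -1.26 ± 0.33 and -2.45 ± 0.50 in the same order. In both genes every R1881 library lay below every vehicle library of its form, in all 3 forms. BCL11B stood at -0.76 ± 0.27, -0.61 ± 0.27 and -1.72 ± 0.32, with the treatments apart in EV and 3A and overlapping in WT. GPR1 stood at -1.51 ± 0.48, -1.35 ± 0.47 and -1.51 ± 0.71, and KLHDC7B at -1.19 ± 0.48, -1.04 ± 0.48 and -1.15 ± 0.73. In both of these genes the treatments were apart in EV and WT and overlapped in 3A, where single libraries decided the value. GPR1 in 3A moved to -4.21 without R1881 replicate 1 and to -0.90 without R1881 replicate 3. KLHDC7B in 3A moved to -0.16 without vehicle replicate 1, to -1.91 without R1881 replicate 1 and to -0.53 without R1881 replicate 2.

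DMGDH had log2 fold changes of -0.43 ± 0.27, -0.60 ± 0.26 and -0.69 ± 0.32 in EV, WT and 3A, and its treatments overlapped in each. S100P stood at 0.93 ± 0.22, 0.18 ± 0.22 and 0.56 ± 0.25, with all R1881 libraries above the vehicle libraries in EV and an overlap in WT and 3A. LCN2 stood at -0.32 ± 0.30, -0.76 ± 0.29 and 0.26 ± 0.37, with the R1881 libraries below the vehicle libraries in EV and WT and an overlap in 3A.

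**Figure D2:**
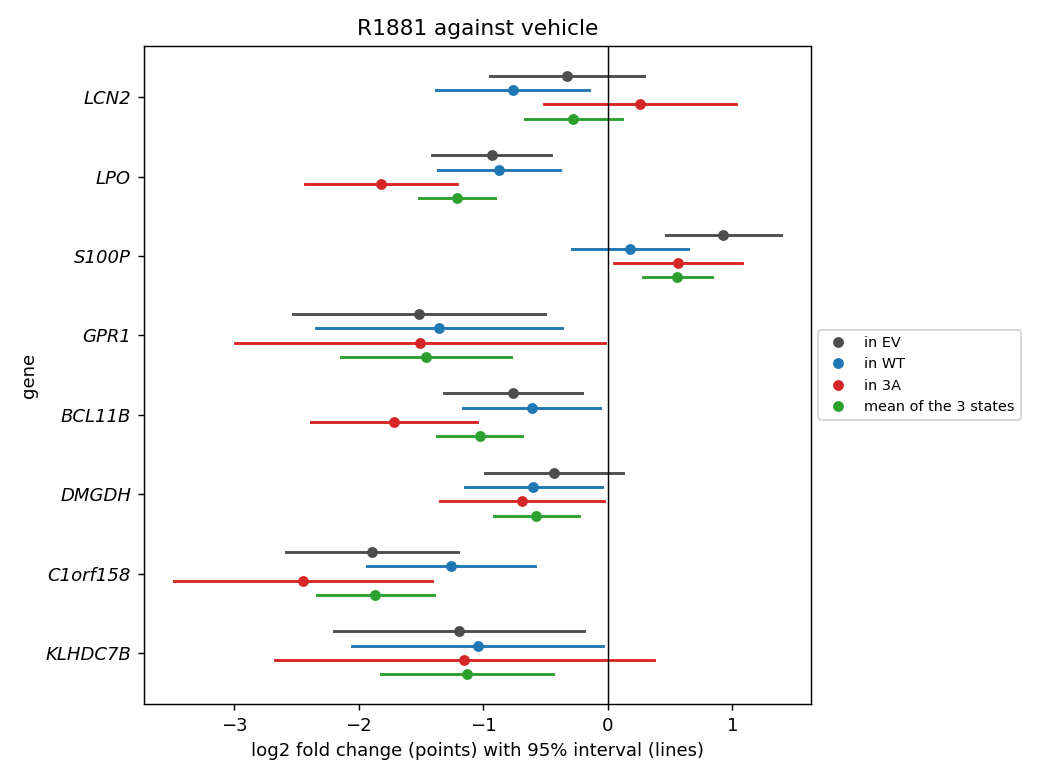
Log2 fold change of R1881 against vehicle (x axis; points, with 95% intervals as lines) for each of the 8 genes (y axis), within EV, WT and 3A and as the mean of the 3. The points of S100P lie above 0 in all 3 forms, those of LCN2 lie on either side of 0, and those of the other 6 genes lie below 0 in all 3 forms.

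The difference between the R1881 responses in 3A and WT is made of the contrasts used for the choice and is given without a test. On the log2 scale it was -1.19 ± 0.60 for C1orf158, -1.11 ± 0.42 for BCL11B and -0.95 ± 0.38 for LPO, and 1.02 ± 0.47 for LCN2. By point estimate, the gap between 3A and WT was thus wider with R1881 than in vehicle for the first 3 and narrower for LCN2. For C1orf158 the interval ran from -2.45 to 0.07. GPR1, KLHDC7B, DMGDH and S100P stood at -0.15, -0.10, -0.09 and 0.38. Against EV, also without a test, the values were -0.55 ± 0.59 for C1orf158, -0.95 ± 0.42 for BCL11B and -0.89 ± 0.37 for LPO. LCN2 stood at 0.58 ± 0.48 and GPR1, KLHDC7B, DMGDH and S100P at 0.01, 0.04, -0.25 and -0.36. The EV intervals of C1orf158 (-1.79 to 0.68) and LCN2 (-0.41 to 1.57) spanned no change.

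Across the 18 libraries the 8 genes varied together. Pearson's r of log2 CPM over the 28 pairs ran from 0.52 (C1orf158 and S100P) to 0.94 (KLHDC7B and DMGDH), with a median of 0.84. All points share the 6 groups, and the genes were chosen for a common difference between them. Within groups, after each group mean was taken off, r ran from -0.54 (LCN2 and LPO) to 0.68 (GPR1 and DMGDH), with a median of -0.04, and 13 of the 28 were positive. Among the 3A vehicle libraries, replicate 1 was the highest for 5 of the 8 genes, and among those with R1881 replicate 1 was the highest for 6.

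For each of the 8, the 2 genes outside the 8 with the highest r over the 18 libraries were named as most like it. The other members were left out, though DMGDH had an r of 0.94 with both KLHDC7B and GPR1. Candidates were tested protein-coding genes with a mean of at least 1 CPM that are not close to the gene on the same chromosome. For LCN2 the 2 genes were WARS (0.93) and CTH (0.92), and for GPR1 AARS (0.94) and SESN2 (0.93). For KLHDC7B they were PSAT1 and CEBPG (both 0.94), and for DMGDH SARS and CHAC1 (both 0.97). LPO was most like SESN2 and ARHGEF2 (both 0.97), BCL11B most like CAPN5 (0.96) and SESN2 (0.94), C1orf158 most like TRPV6 and ARHGEF2 (both 0.95), and S100P most like TMEM258 (0.93) and VKORC1 (0.91). Each of the 13 had a smaller fold change in 3A than the gene it was matched to, in all 4 comparisons with EV and WT. Each also averaged more CPM than that gene in every group, except VKORC1, which averaged 11.5 CPM in EV and 8.48 in WT with R1881, where S100P averaged 14.8 and 9.89. SESN2, a stress-induced regulator of mTOR signalling, averaged 159 CPM in EV, 152 in WT and 80.1 in 3A in vehicle, and 105, 93.6 and 46.4 with R1881. CHAC1, a glutathione-degrading enzyme, averaged 66.3, 69.8 and 24.8 CPM in vehicle and 49.8, 42.7 and 16.5 with R1881. SARS, a serine tRNA synthetase, averaged 462, 456 and 287 CPM in vehicle and 419, 385 and 263 with R1881.

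Of the 13 genes, 8 are in a list of 22 genes of the amino acid response, in which the factor ATF4 raises amino acid synthesis, transport and tRNA charging. That list was drawn up after the likeness had been seen, so it is described without a test. Its other 14 genes had a median log2 fold change in 3A of -0.77 against EV and -0.69 against WT in vehicle, and -0.76 and -0.57 with R1881. In vehicle 14 of the 14 values were negative in both comparisons and with R1881 13 of 14 in both, with VLDLR the exception (0.06 against EV and 0.43 against WT). The median for WT against EV was -0.04 in vehicle and -0.15 with R1881. Over the 18 libraries, the mean log2 CPM of these 14 genes had r from 0.66 (S100P) to 0.95 (DMGDH) with the 8 genes. Like the r of the 13 genes above, these values share the low 3A level for which the 8 were chosen. Nothing is read from their height. Within groups r was 0.65 for DMGDH and between -0.07 and 0.29 for the other 7.

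Genes that share a pathway or family with the 8 were counted over 8 lists, in which 76 of 119 genes had enough counts to be tested. The lists were drawn up with earlier results of these data known. The p-values printed below for single genes of the lists are those of genes picked for being called. In vehicle 1 rose and 3 fell in 3A against EV (7.25% of all tested genes were called) and 3 rose and 2 fell against WT (5.63%). With R1881 3 rose and 4 fell against EV (8.45%) and 4 rose and 2 fell against WT (3.18%). The median log2 fold change of the 76 was 0.01 and -0.01 against EV and -0.01 and 0.07 against WT, in vehicle and with R1881. Of these 22 calls 9 were kept without any 1 library, and the other 13 were each lost on leaving out any of 2 to 5 of the 6 libraries compared.

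Among 12 tested genes of innate defence and NF-kB signalling, the setting in which LCN2 is best known, 2 fell against EV and 1 rose and 1 fell against WT in vehicle. With R1881 1 fell against EV, and 2 rose and 1 fell against WT. LTF, which encodes the iron-binding defence protein lactoferrin, fell by 1.59 against EV (edgeR adjusted p = 0.000392) and fell by 1.33 against WT (edgeR adjusted p = 0.00398) in vehicle. With R1881 LTF fell by 1.42 against WT (edgeR adjusted p = 0.00595), a call lost when the 2 groups were fitted alone. The NF-kB subunit gene NFKB2 was 0.61 higher in 3A than in WT with R1881 (edgeR adjusted p = 0.00388), where LCN2 was lower. Against EV with R1881 0 of the 12 rose in 3A, so NFKB2 was not called higher there, while LCN2 stood at -1.80. In WT against EV with R1881, 0 of the 12 rose and 2 fell.

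In the choline, betaine and sarcosine pathway of DMGDH, 12 genes were tested. In 3A 1 rose and 1 fell against EV in vehicle, 1 fell against EV with R1881, 1 fell against WT in vehicle and 2 rose against WT with R1881. Those 2 were GNMT, which makes sarcosine from glycine (log2 fold change 1.03, edgeR adjusted p = 0.000359), and the choline kinase CHKA (0.58, edgeR adjusted p = 0.00123). DMGDH moved the other way in that comparison, at -2.16. Against EV with R1881 0 of the 12 rose in 3A, so neither GNMT nor CHKA was called higher there, while DMGDH stood at -2.19. In WT against EV with R1881, 1 of the 12 rose and 2 fell.

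Among 14 tested ciliary genes, 2 rose and 1 fell against EV with R1881, 1 rose against WT in vehicle and 1 fell against WT with R1881. The last was ENKUR, a ciliary microtubule protein like C1orf158, which had 2 counts in the 3A libraries with R1881 against 41 in WT (fitted log2 fold change -4.20, edgeR adjusted p = 0.00719). In vehicle ENKUR had 63 counts in 3A, 28 in EV and 31 in WT, so it was not low in 3A there as C1orf158 was. For the ciliary list edgeR called 0 against EV in vehicle, where 1 gene had an unadjusted p under 0.05 and DESeq2 called 0.

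Around BCL11B, 17 genes of the BAF chromatin remodelling complex were tested, and 1 rose against EV with R1881 and 1 against WT in vehicle. Of 6 tested kelch genes, 1 fell against EV with R1881. The chemerin list had 1 tested gene, the ligand RARRES2, which edgeR and DESeq2 called in 0 of the 4 comparisons and which had an unadjusted p under 0.05 in 0. The other chemerin receptors had 0 counts (CMKLR1) and 1 count (CCRL2) over all libraries, so GPR1 was the chemerin receptor gene with measurable RNA. Of the S100 family, S100A8 and S100A9 were counted in the innate defence list above. There S100A9 fell in 3A against EV in vehicle (-1.29 ± 0.33, edgeR adjusted p = 0.0161), a call kept under 7 of 12 alternatives. Among the other S100 genes and partners of S100P, edgeR called 0 of 9 tested genes in each comparison, where 2 and 1 genes against EV and 2 and 0 against WT (vehicle, then R1881) had an unadjusted p under 0.05, and DESeq2 called 1 and 0, then 1 and 0. Among 5 tested haem peroxidases and NADPH oxidases, the relatives of LPO, edgeR also called 0 in each, where 1 and 0, then 1 and 1 had an unadjusted p under 0.05 and DESeq2 called 1 and 0, then 1 and 0.

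The nearest protein-coding genes on either side of the 8 loci numbered 16, of which 11 were tested. In 3A against EV 2 fell in vehicle (EEF1B2 and ODF3B) and 2 with R1881 (EEF1B2 and PTGES2; with the replicate block ODF3B as well, -0.62, edgeR adjusted p = 0.039), and each call was lost on leaving out any of 3 to 5 of the 6 libraries. Against WT edgeR without the block called 0 in either treatment, where 5 and 3 had an unadjusted p under 0.05 and DESeq2 called 1 and 0. With the replicate block EEF1B2 fell against WT in vehicle (-0.27, edgeR adjusted p = 0.0377). SYCE3, which ends 89 bases from KLHDC7B, had log2 fold changes in 3A of 0.12 ± 0.20 and -0.30 ± 0.20 against EV and -0.17 ± 0.20 and 0.06 ± 0.21 against WT, where KLHDC7B lay between -3.03 and -2.82. BHMT, which overlaps DMGDH, had 14 counts in EV, 14 in WT and 0 in 3A with R1881, and 25, 12 and 19 in vehicle, and 18 of the 19 were in 1 library.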

How the data were processed

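Whole-read counts and FPKM for the same 58735 genes were used as deposited by the authors. The submitters' processing notes name HISAT2 2.0.5 and featureCounts 1.5.0-p3, with hg38 as the build. For the annotation release, the strand setting and multimapping reads, the choice is not given in the sources used here. Per the labels' protocols, libraries were made from total RNA with NEBNext Ultra II and sequenced paired-end. The deposited FPKM equalled count over gene length and effective library size within 0.1% for 100% of 407062 values above 0, so FPKM served only to compare levels between genes. The deposited gene length, in bases, was used for this check. Exon overlaps come from GENCODE, whose coordinates matched 58653 of the 58735 genes.

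Counts were tested with edgeR 4.0.16 in R 4.3.3: filterByExpr (minimum count 10, minimum total 15), TMM scaling, 1 coefficient per group over 18 libraries (12 residual degrees of freedom), the quasi-likelihood test, and Benjamini-Hochberg adjustment over 17162 genes with 0.05 as the threshold. CPM uses the TMM-scaled library size, and log2 CPM uses a prior count of 2. Intervals are at 95%. Groups and replicate numbers come from the titles. Same-numbered libraries deviated together (every correlation over 0.1) in 3 of 15 pairs of groups: EV vehicle with EV R1881 (0.16 to 0.20), EV vehicle with WT R1881 (0.13 to 0.20) and EV R1881 with 3A R1881 (0.11 to 0.15). They did not between the treatments of WT (-0.01 to 0.28) or 3A (-0.07 to 0.19). For WT R1881 with EV R1881 (0.099 to 0.158) and with 3A R1881 (0.078 to 0.254), the lowest correlation fell just short of that cutoff. What a number marks is not stated in the labels. Alternatives were DESeq2 1.42.0, RLE scaling, 2 other filters, fitting only the groups compared, a replicate block and leaving out each library. The procedure was tested on simulated data for the R1881 comparisons only, with the same spread for every gene. The simulation does not cover comparisons of 3A with EV or WT, or genes with a wider spread between replicates. The 8 genes and all lists were chosen with earlier results of these data known. Named genes were the 8, HOXB13, the nearest neighbours, and of each list up to 2 called genes with the smallest adjusted p. For each of the 8, the 2 most alike genes outside the 8 were also named. S100A9 was named besides these, as an S100 gene counted in the innate defence list.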

Additional observations from a re-analysis of the deposited data

How the results depend on the processing

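The 32 log2 fold changes of 3A against EV or WT stayed negative under all alternatives run (416 values, -5.71 to -1.15). They moved by more than the spread between replicates in 5 cases: without 3A R1881 replicate 1, GPR1 stood at -5.46 against EV and -5.71 against WT with R1881; without 3A vehicle replicate 1, KLHDC7B stood at -4.01 and -3.80 in vehicle; and without 3A R1881 replicate 2, C1orf158 stood at -4.00 against WT with R1881. Of the R1881 results of the 8 genes, those within 1 form (a description only) included, 443 alternative values kept their side of the threshold, 10 passed it newly and 18 no longer passed it. Fitting only the groups compared gave no value for KLHDC7B in 3A, which the filter then removed. Leaving out 1 library, the number of the 8 genes called with R1881 was 3 to 4 in EV, 1 to 4 in WT, 3 to 5 in 3A and 6 to 7 for the mean. The number of list genes called in 3A was 1 to 3 against EV and 1 to 6 against WT in vehicle, and 1 to 7 and 6 to 6 with R1881. The replicate block changed no call among the 8 genes (5 called in EV, 3 in WT, 3 in 3A and 7 for the mean). Over all tested genes, the block raised the calls of 3A against EV from 1244 to 2072 in vehicle and from 1451 to 2409 with R1881. Against WT they rose from 967 to 1732 and from 545 to 1046. The shares of all tested genes called, as given above, come from the fit without the block. With the block, 7 list genes were called against EV (3 higher and 4 lower) and 11 against WT in vehicle (8 higher and 3 lower), and 9 against EV with R1881 (4 higher and 5 lower). DESeq2 called 11 against WT in vehicle, and fitting only the groups compared called 1 there and 4 against EV with R1881, where fewer genes were tested. The cause of the other shifts was not tested. Depth limits GPR1, KLHDC7B and C1orf158 most, whose 3A groups with R1881 held 11, 12 and 11 counts.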
